A study of Mus musculus with 13 samples.

Results

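The promoters that carried H3K27ac in every one of 9 mouse melanoma cell lines are described here, and they are called the shared promoter regions. Touching or overlapping peaks from any of the lists were joined, and a joined region was kept when it was autosomal, narrower than 10 kb, held a peak of all 9 lists and had an annotated start of transcription (TSS) inside it or at most 1 kb away. Of 59668 joined regions, 4459 met this rule, among 8187 that were called in all 9 lists and 15568 autosomal promoter regions narrower than 10 kb. The regions were selected on the peak calls themselves, so that their presence in every list, and the strength that goes with it, is a description and not a result.

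H3K27ac is an acetyl group on lysine 27 of the histone H3 tail, and ChIP-seq sequences the DNA brought down by an antibody against it. Acetyltransferases such as p300 and CBP place the mark at active promoters and enhancers, deacetylases remove it, and proteins with a bromodomain bind acetylated histones. At a promoter the mark usually sits on the nucleosomes that flank the start site, whereas the site itself is often kept free of nucleosomes. Genes that all dividing cells need, such as those of ribosomes, splicing and respiration, tend to have CpG-rich promoters that are marked in most cell types.

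The lines were established from melanomas of mice that carried the Tyr::NRAS Q61K/° transgene, were Cdkn2a+/- and had floxed Cdh1 alleles (Cdh1 F/F), where Cdh1 encodes E-cadherin and the Tyr promoter is active in the melanocyte lineage. The Ecad lines lacked Cre, and the ΔEcad lines also carried Tyr::CreA/°, which deletes Cdh1 in that lineage. Male Ecad lines were Ma_1007 and Ma_1181, female Ecad lines Ma_1014 and Ma_1039, male ΔEcad lines Ma_1062 and Ma_1456, and female ΔEcad lines Ma_1057, Ma_1064 and Ma_1069. All were untreated, and values of the 9 lines are given in this order. Each line gave 1 list of 20741 (Ma_1069) to 41663 peaks (Ma_1007), so a line is 1 tumour-derived culture and a group is 2 or 3 such cultures. No list had a peak within 1 kb of a Cdh1 start, and H3K27ac cannot check the deletion. A list holds no read counts, so depth is unknown. The median −log10 q of the shared promoter regions (the deposited significance of a peak) ran from 27.6 in Ma_1069 to 223.1 in Ma_1007, and this gap moved with the group contrasts below, where its part was not tested.

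The sequences in front of the strongest of these promoters are shown first, because they show how different the DNA of a promoter marked in all lines can be. Strength was expressed as a percentile: the share of peaks of a list with a −log10 q no higher than the highest peak in the region. The strongest members by mean percentile that had a RefSeq promoter window are printed, with 1 chromosome left out. Each is shown as the 250 bases before a RefSeq start, on the strand of the gene (GRCm38.p6, the same coordinates as mm10). Where a gene had several RefSeq starts at the region, the one nearest to the median summit over the lines was taken. Capitals mark matches, on either strand, to the letters of 9 motifs, of which none contains another. The GC box, bound by Sp1 and its relatives, was searched as GGGCGG. The site of ETS factors at many housekeeping promoters was searched as CCGGAAG. The CCAAT box takes its name from its own letters and is bound by NF-Y. The TATA box, bound by the TATA-binding protein, was searched as TATAAA. The cyclic AMP response element, bound by CREB, was searched as TGACGTCA. The site of NRF1, a regulator of mitochondrial genes, was searched as GCATGCGC. The site of the zinc finger protein YY1 was searched as AAGATGGC. The E-box of MYC and related factors was searched as CACGTG. The M-box, bound by the melanocyte factor MITF, was searched as TCATGTGA.
Scly: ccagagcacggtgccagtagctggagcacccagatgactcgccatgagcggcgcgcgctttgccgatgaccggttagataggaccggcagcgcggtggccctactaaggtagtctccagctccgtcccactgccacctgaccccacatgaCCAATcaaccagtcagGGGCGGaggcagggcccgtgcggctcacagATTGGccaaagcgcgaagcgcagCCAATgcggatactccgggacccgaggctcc
Brd2: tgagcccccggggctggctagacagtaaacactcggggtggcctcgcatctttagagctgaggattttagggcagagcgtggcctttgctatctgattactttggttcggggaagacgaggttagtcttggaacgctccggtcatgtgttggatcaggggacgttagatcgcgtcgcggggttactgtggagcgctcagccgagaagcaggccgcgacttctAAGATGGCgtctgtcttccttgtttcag
Eapp: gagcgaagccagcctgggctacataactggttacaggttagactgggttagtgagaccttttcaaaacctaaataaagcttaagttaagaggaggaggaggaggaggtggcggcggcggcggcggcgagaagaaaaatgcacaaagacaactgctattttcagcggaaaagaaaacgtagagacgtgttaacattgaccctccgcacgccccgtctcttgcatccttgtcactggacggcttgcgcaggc
Ubb: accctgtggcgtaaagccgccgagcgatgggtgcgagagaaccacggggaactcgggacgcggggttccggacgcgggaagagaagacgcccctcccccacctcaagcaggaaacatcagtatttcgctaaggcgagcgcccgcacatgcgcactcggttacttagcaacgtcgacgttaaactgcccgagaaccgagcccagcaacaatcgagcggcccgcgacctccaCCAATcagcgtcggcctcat
Ptpa: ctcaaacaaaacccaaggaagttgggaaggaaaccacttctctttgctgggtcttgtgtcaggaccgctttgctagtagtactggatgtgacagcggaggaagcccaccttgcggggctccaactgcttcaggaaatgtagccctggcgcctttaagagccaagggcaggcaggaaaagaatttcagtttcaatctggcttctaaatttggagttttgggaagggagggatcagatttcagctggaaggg
Mtmr2: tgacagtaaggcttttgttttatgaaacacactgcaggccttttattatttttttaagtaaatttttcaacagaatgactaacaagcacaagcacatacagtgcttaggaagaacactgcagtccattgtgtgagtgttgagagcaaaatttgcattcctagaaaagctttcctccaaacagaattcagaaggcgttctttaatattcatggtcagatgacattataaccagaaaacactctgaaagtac

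The 6 windows differed widely. Scly (chr1:91298088-91298337, plus strand) had 65.2% GC, 21 CpG dinucleotides, 3 CCAAT boxes and 1 GC box. Ubb (chr11:62550921-62551170, plus strand) had 62.8% GC, 30 CpG and 1 CCAAT box, whose first base on the printed strand lay 20 bases before the start. Brd2 (chr17:34119901-34120150, minus strand) had 56.4% GC, 18 CpG and 1 YY1 match, and Eapp (chr12:54695895-54696144, minus strand), which encodes an E2F-associated phosphoprotein, had 52.0% GC, 15 CpG and no match. Ptpa (chr2:30441603-30441852, plus strand), an activator of protein phosphatase 2A, and Mtmr2 (chr9:13765704-13765953, plus strand), a phosphoinositide phosphatase, were poor in CpG, with 4 and 1 and no match, and Mtmr2 had only 35.6% GC. At the starts printed, the strongest shared promoters were thus not all CpG-rich. These need not be the outermost starts of the genes, which are used for composition below.

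The highest mean percentile was that of Scly, which encodes selenocysteine lyase, at 99.8 ± 0.17 (SD, n = 9 lines), followed by Brd2, a bromodomain reader of acetylated histones, at 99.7 ± 0.24. Brd2 stood at 99.9, 99.9, 99.7, 99.8, 99.5, 99.9, 99.8, 99.3 and 99.4 in the 9 lines, so its rank barely moved. The unclassified locus Gm37747 (99.7), the zinc finger gene Zfp24 (99.7), Gm829 (99.4), Ppp1r15b (99.2), Eapp (99.1), the snoRNA locus Gm25396 (99.1) and Ptpa (99.0) completed the 10 strongest with Ubb. Ubb, one of the polyubiquitin genes, had 99.8, 99.97, 99.1, 99.1, 96.2, 99.3, 99.7, 99.2 and 99.3, with its lowest value in Ma_1062. Ppp1r15b encodes a subunit that directs protein phosphatase 1 to the translation factor eIF2α.

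At the other end, the weakest were Ccdc17 (mean percentile 16.2 ± 16.9, SD), Gm16170 (19.6), Lamtor5 (20.3), Ccdc6 (22.5) and Aasdh (23.7). Lamtor5 is a subunit of the Ragulator complex on lysosomes, and its promoter reached percentile 55.7 and 60.3 in the male Ecad lines, 19.7 and 0.216 in the female Ecad lines, 3.61 and 12.5 in the male ΔEcad lines and 23.1, 5.30 and 2.45 in the female ΔEcad lines. Being called everywhere thus did not mean being strong everywhere: 398 members (8.93%) were at or below percentile 10 in at least 1 list, 2095 (47.0%) were above percentile 50 in all, and 153 (3.43%) were above percentile 90 in all. Only 5 members were at or below percentile 50 in every list.

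The median member had a mean percentile of 73.6, and the quartiles were 61.2 and 84.2. Among autosomal promoter regions of the same width limit, the median mean percentile rose with the number of lists, from 25.5 for 2730 regions called in 1 list to 54.8 for 1393 called in 8. Those 1393 lie just outside the rule, and 801 of them were missed only by the shortest list, Ma_1069, against 170 missed only by Ma_1064 and 10 only by Ma_1007. At the width limit, 73 members of 9 to 10 kb had a median mean percentile of 89.6 and 52 regions of 10 to 11 kb had 89.3. At the distance limit, 110 members with the nearest TSS more than 500 and up to 1000 bp away had a median of 66.9 and 108 regions with a TSS more than 1000 and up to 1500 bp away had 73.7. These values describe the rule and were not tested.

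**Figure D1:**
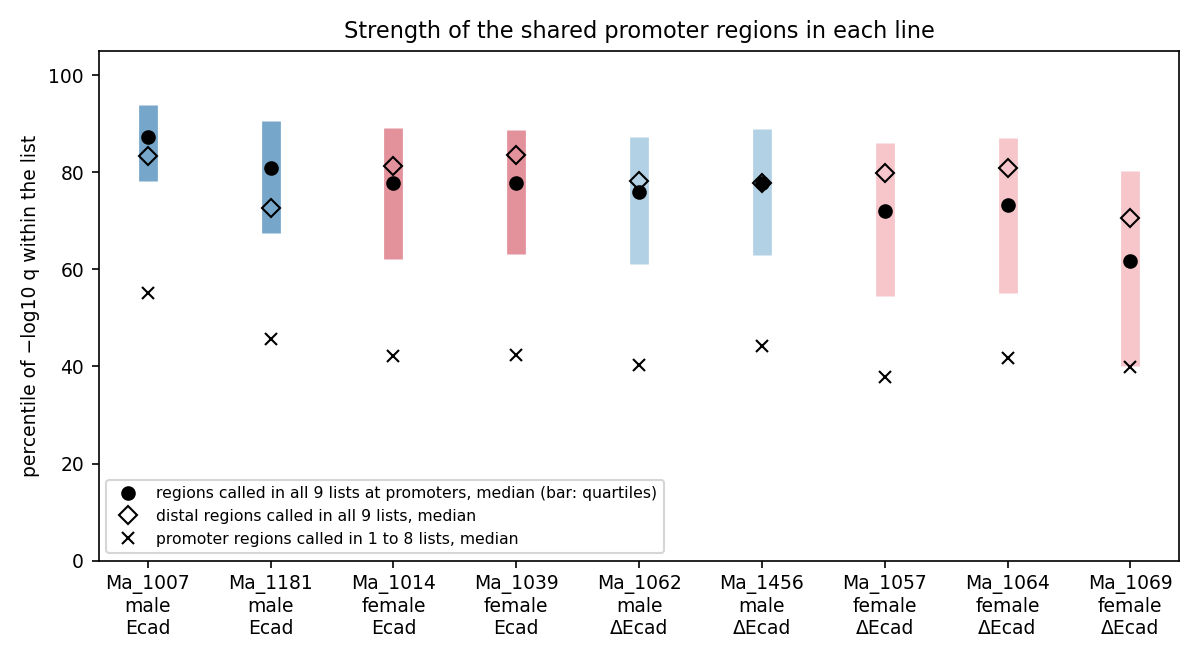
Percentile of −log10 q within each list (vertical axis) for the 9 lines. Dots are medians and bars the quartiles of the 4459 shared promoter regions, diamonds are medians of 3133 shared distal regions and crosses medians of promoter regions called in 1 to 8 lists. Dots fall from 87.3 in Ma_1007 to 61.7 in Ma_1069, and they lie below the diamonds in the 5 female lines and in Ma_1062.

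The joined regions had a median width of 2742 bp (539 to 9983 bp), but the part covered by all 9 lists was smaller. This common core had a median of 779 bp, or 30.8% of the region, and 96 members (2.15%) had no base covered by all lists although each list had a peak in the region. In 2177 members (48.8%) every list held exactly 1 peak. Covered length, the bp of a region under the peaks of 1 list, averaged 1767 bp for the median member, and over members it rose with strength (Spearman rho 0.56 over 4459 regions, a description, since both come from the same peaks).

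The widest coverage was at the region named by Ddit3, which also holds the starts of Mars and Mbd6. It covered 9705, 9382, 9316, 8482, 8851, 7422, 8407, 7100 and 8314 bp. Ddit3 encodes the stress factor CHOP and Mars the methionyl-tRNA synthetase, and the shortest coverage was in Ma_1064. Setd1b, a histone H3K4 methyltransferase (8133 bp on average), Scly (8074 bp), Zc3h4 (7940 bp) and Lars2, the mitochondrial leucyl-tRNA synthetase (7905 bp), followed. The narrowest were Pex7, Atp5g1, Oaz1, Parp6 and Ripk2, with means of 375.0 to 444 bp. Narrow was not the same as weak: Oaz1, the antizyme that restrains polyamine synthesis, had a mean percentile of 76.8, whereas Parp6 had 29.2.

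Summits avoided the start site itself. In 1210 members whose annotated starts lay on 1 strand within 100 bp of each other, the strongest summit was within 50 bp of the start in 0.496% to 1.49% of regions, depending on the line. It lay 50 to 500 bp downstream in 32.0% to 40.3% and 50 to 500 bp upstream in 23.3% to 27.4%. With the position taken as the median over the lines, 56.2% were downstream and the median was 135.5 bp downstream. The shape, a gap over the start between a taller downstream and a lower upstream crest, was seen in each of the 9 lists.

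**Figure D2:**
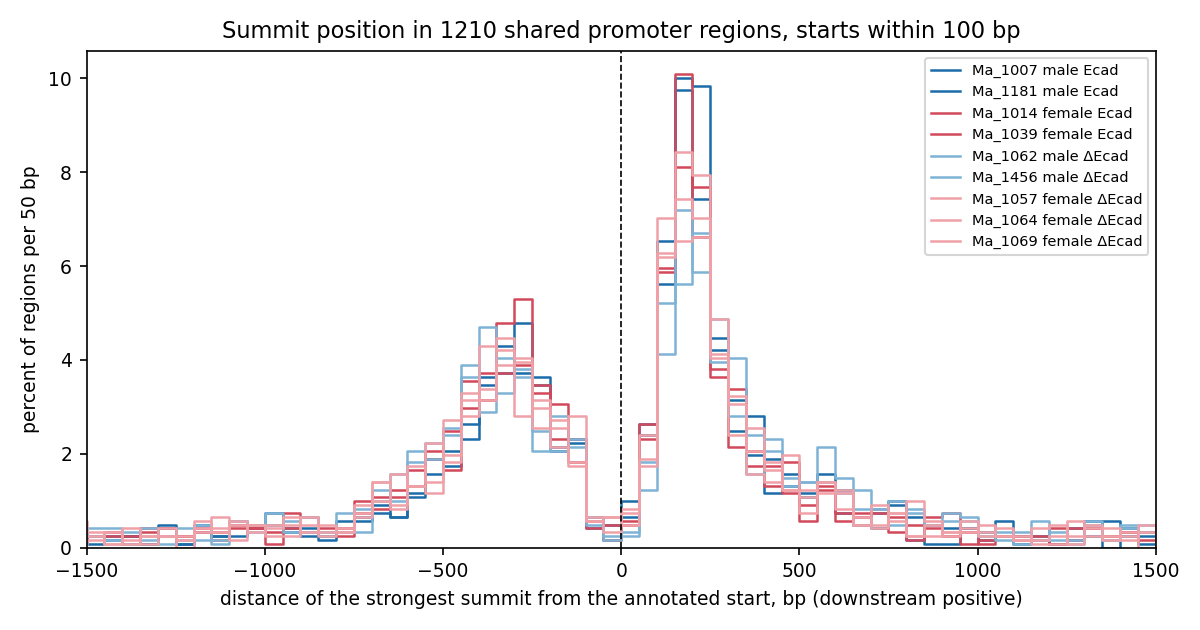
Distance of the strongest summit from the annotated start in bp (horizontal axis, downstream positive) against the percent of 1210 shared promoter regions per 50 bp (vertical axis), 1 line per list, coloured by group. Each list shows few summits within 50 bp of the start, 0.496% to 1.49%, and a higher crest downstream than upstream.

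Shared promoters were mostly those of protein-coding genes. At least 1 such gene had a start within 1 kb of 4062 members (91.1%), 727 (16.3%) had 2 or more, and 397 (8.90%) had none. Of 20807 autosomal protein-coding genes, 4537 had a shared promoter region, a background of 21.8%, while 6527 were called in 1 to 8 lists, 231 lay only in shared regions of 10 kb or wider and 9512 were called in no list. By chromosome the share ran from 17.9% on chromosome 7 to 29.1% on chromosome 12. A head-to-head partner, a protein-coding start on the other strand up to 1000 bp upstream, was found for 25.2% of the genes with a shared promoter, against 14.9% of those called in 1 to 8 lists, 2.197% of those in no list and 11.3% of all. A divergent pair shares 1 region, so both genes count, which raises that percentage by construction.

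Sequence set the marked from the unmarked promoters more than it set the shared from the partly called ones. In the 250 bases before the outermost annotated start of each gene, GC content had a median of 59.2% for 4535 genes with a shared promoter, 58.0% for those called in 1 to 8 lists and 49.2% for those called in none. A window was called CpG-rich when GC exceeded 50% and the CpG count exceeded 0.6 of that predicted from base composition. By this rule 63.7% of shared, 53.5% of partly called and 14.8% of uncalled promoters were CpG-rich, against 38.0% of all 20802 windows. The GC box was in 54.2%, 52.8% and 23.0% and in 39.6% of all, and the ETS letters in 15.6%, 11.4% and 2.61% and in 8.21% of all. The TATA box went the other way, with 6.59%, 6.94% and 17.2% and 11.6% of all. The CCAAT box was in 34.3% of shared and 35.5% of all windows, and the M-box in 0.507% and 0.812%. Within the shared promoters, composition changed little with strength: from the weakest to the strongest quartile of members, 63.7%, 64.8%, 66.9% and 59.2% were CpG-rich. A match to these letters is not a bound site.

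Genes of the protein-making machinery were the most complete group. Among 75 autosomal cytosolic ribosomal protein genes, 72 (96.0%) had a shared promoter region, 1 (Rps15a) lay in a wider region, and Rpl13 and Rpl22 were called in 8 lists. Their strength was ordinary, with a median mean percentile of 70.9 against 74.0 over all 4537 genes, and from 34.5 (Rps24) to 96.1 (Rpl7). Rpl7 had 98.8, 97.8, 94.7, 96.1, 95.3, 95.4, 95.9, 98.9 and 91.8, and Rpl19 averaged 96.0. Rps24 spread far more, from 74.5 in Ma_1007 to 0.762 in Ma_1069. All 7 autosomal CCT chaperonin genes, which encode the ring that folds actin and tubulin, had a shared promoter, with mean percentiles of 44.1 (Cct4) to 78.7 (Cct5) and 76.6 for Cct7. Of 23 genes of cytosolic aminoacyl-tRNA synthetases, which charge tRNAs, and their partner proteins, 17 (73.9%) did, led by Mars (98.8) and Sars (97.7), with Qars lowest at 29.4.

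Other housekeeping machines were shared in part. Spliceosome components had 24 of 44 (54.6%), led by U2af2 (94.1) and Snrpa (93.3), and Sf3b5 alone was called in no list. The respiratory chain and ATP synthase had 35 of 70, led by Ndufv1 (97.1) and Atp5l (96.2), with Atp5o in no list. Proteasome subunits had 15 of 32 (46.9%), led by Psma6 (95.7) and Psmc3 (89.96), and RNA polymerase II with the general factors 18 of 41 (43.9%), led by Gtf2a1 (96.7) and Taf4 (90.3), with Ercc2 in no list and Polr2f and Gtf2h1 in wider regions. Mediator subunits had 11 of 30 (36.7%), led by Med25 (96.1) and Med16 (91.5), and the MCM, GINS, origin recognition and other factors of DNA replication 9 of 26 (34.6%), led by Cdt1 (87.5) and Orc6 (83.6).

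Signalling and chromatin genes were shared in part as well. Acetyltransferases, deacetylases and bromodomain readers had 14 of 30 (46.7%), with Brd2 and Brpf1 (97.4) at the top, Ep300, which encodes p300, at 93.7, and Crebbp, which encodes CBP, called in 4 lists. In the RAS-MAPK core, the pathway driven by the NRAS transgene in these mice, 9 of 17 (52.9%) had a shared promoter, led by the adaptor Shc1 (93.3) and the kinase Mapk3 (90.8). Endogenous Nras was a member, with percentiles of 88.4, 80.2, 67.0, 73.6, 75.2, 69.9, 49.5, 21.5 and 50.1, lowest in the 3 female ΔEcad lines. The medians of all members were also lowest in these lines, at 71.9, 73.2 and 61.7. Nras was not called in the fit of strength by −log10 q described below. Hras was called in 4 lists and Braf in 5. Immediate early genes, transcription factors induced quickly by growth signals, had 9 of 20 (45.0%), led by Klf6 (94.0) and Myc (90.6), with Ier2 and Nr4a1 in wider regions and Klf2 in no list.

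Melanocyte genes were shared, but mostly outside the width limit. Of 19 autosomal lineage genes, 12 lay in regions of 10 kb or wider called in all lists, among them Mitf, Sox10, Pax3, Tyr, Dct and Pmel, and 4 (Tyrp1, Ednrb, Rab27a and Rab38) were called in 2 to 7 lists. The 3 members were Slc45a2, a transporter of the melanosome (98.4 ± 1.49, SD, n = 9), Trpm1 (74.1) and Oca2 (54.2 ± 31.4). Slc45a2 covered 6302 to 8801 bp and ranked at 94.7 or higher in each line, whereas Oca2 ranged from 3.22 in Ma_1069 to 86.1 in Ma_1057, both female ΔEcad. The lineage factors Mitf and Sox10 and the pigment enzymes Tyr and Dct were thus called in every line.

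Markers of other cell types were largely without a shared promoter. None of 10 keratinocyte, 10 endothelial and 10 immune markers had one, and 9, 9 and 10 of them were called in no list. The keratinocyte keratin Krt10 was called in 5 lists and Tek in 1. Of 10 fibroblast markers only Postn was a member (81.3), with percentiles of 74.7 to 90.2, and 7 were called in no list, including the collagens Col1a1 and Col1a2. Of 10 liver markers only Ttr, the thyroxine carrier transthyretin, was a member (89.96), with 78.3 to 98.1, and Alb was among 8 called in no list. Olfactory receptor genes had 2 of 1127 (0.178%) and genes named Zfp 121 of 385 (31.4%).

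**Figure D3:**
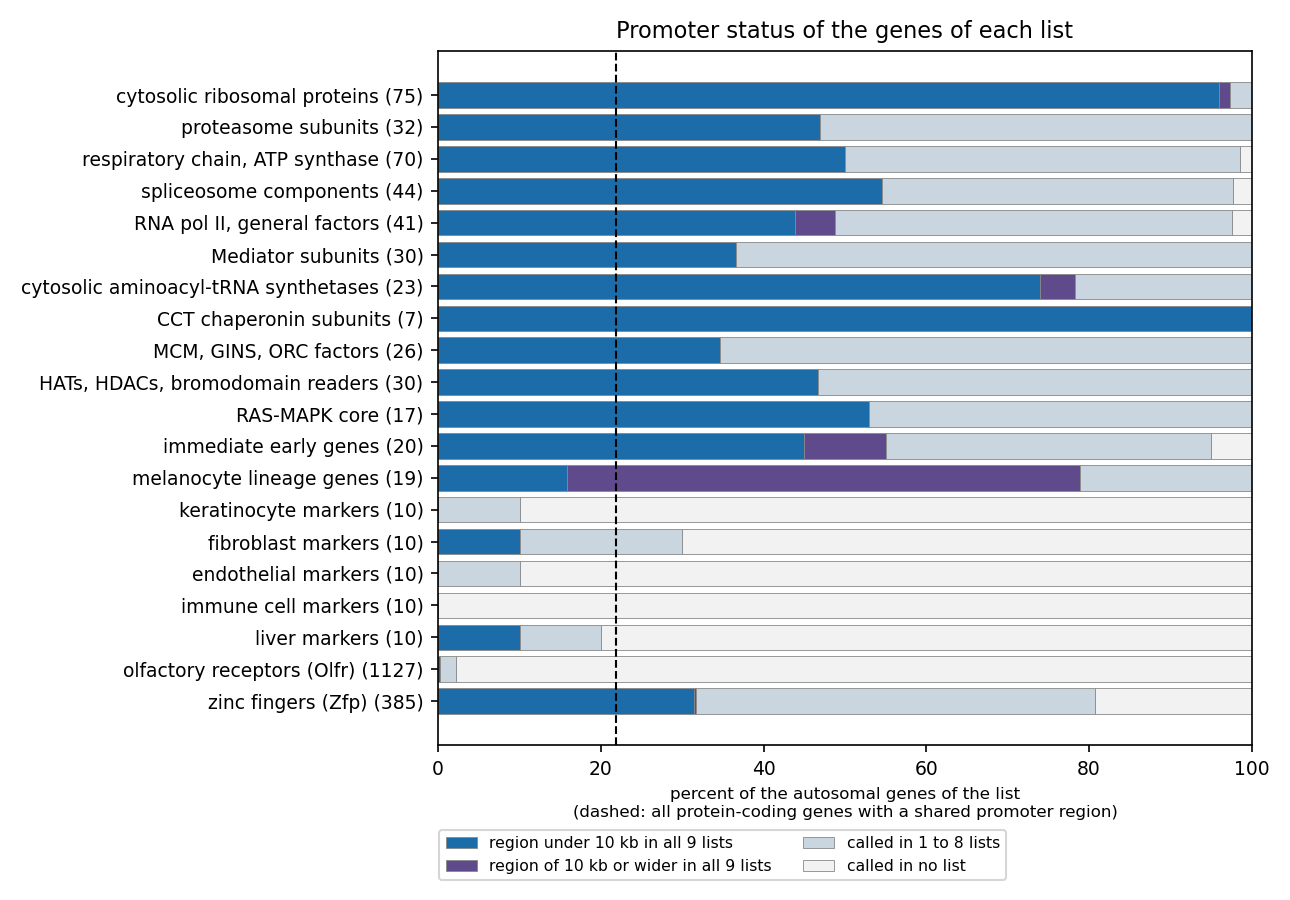
Percent of the autosomal genes of each list (horizontal axis, number of genes in parentheses) by promoter status: shared region under 10 kb, shared region of 10 kb or wider, called in 1 to 8 lists, or called in no list. The dashed line marks the 21.8% of all protein-coding genes. Ribosomal protein genes reach 96.0%, melanocyte genes lie mostly in wide regions, and markers of other cell types are mostly uncalled.

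The order of the shared promoters was partly kept from line to line. Across the 4459 regions the Spearman rho of −log10 q between lines of the same group had a median of 0.68 (0.61 to 0.86, 6 pairs) and between groups 0.60 (0.46 to 0.71, 30 pairs). These are descriptions, since the points share libraries and base composition. For comparisons between lines, each region was given a rank score, the normal score of its rank by −log10 q among the 8187 regions called in all lists, so that every list has the same distribution. The SD of the rank score over the 9 lines had a median of 0.50 for the shared promoters and 0.67 for the 3133 distal regions called in all lists, and it fell from 0.59 in the weakest quartile of the promoters to 0.42 in the strongest.

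The steadiest members were Dact3, 4930578M01Rik, Trdmt1, AW549877 and Zbtb43, with SDs of 0.13 to 0.15. Trdmt1, a tRNA methyltransferase, had percentiles of 92.7, 91.7, 87.1, 88.9, 89.5, 87.4, 83.0, 85.6 and 84.4. Its values moved by less than 10 percentiles. The most variable were Gm13856, Mest, Klhdc10 and Calu, all between 29 and 35 Mb of chromosome 6 (chr6:34152599-34156264, chr6:30733869-30737269, chr6:30400511-30403393 and chr6:29359770-29365607), and Anxa7 on chromosome 14. Mest, an imprinted gene expressed from the paternal copy, had 52.6, 49.5, 99.9, 99.3, 97.0, 16.6, 23.3, 77.6 and 88.5. It was near the top of the list in both female Ecad lines and in Ma_1062, and lowest in Ma_1456 and Ma_1057.

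The 11 members between 29 and 35 Mb of chromosome 6 moved together in some of the lines. Their median percentile was 99.9 in Ma_1014, 99.6 in Ma_1039 and 99.6 in Ma_1062, and 54.7 in Ma_1456, where all members had a median of 77.7. Ma_1057 was also low, at 66.3 against 71.9 for all its members, and Ma_1069 was high, at 95.0 against 61.7. The 11 members still spread from 28.0 to 99.65 in Ma_1069, from 14.4 to 99.2 in Ma_1064 and from 16.7 to 98.1 in Ma_1181. The female Ecad lines went together and the male Ecad lines, at 87.7 and 79.7, lay near their own medians of 87.3 and 80.8, but the male ΔEcad lines Ma_1062 and Ma_1456 did not go together. In 236 windows of 5 Mb with at least 8 members, 9 of 2124 pairs of window and line had a median shift of more than 1 SD unit from the line's and the regions' own medians. Of these, 5 were in the window from 30 to 35 Mb of chromosome 6 and 2 in that from 85 to 90 Mb of chromosome 4. On chromosome 6 they were up in Ma_1014, Ma_1039 and Ma_1062 and down in Ma_1057 (-1.47) and Ma_1456 (-1.21). In the chromosome 4 window the median percentile of 11 members was 99.6 in Ma_1064 and 99.1 in Ma_1456, and 61.3 in Ma_1057, where all members had medians of 73.2, 77.7 and 71.9. In Ma_1069 it was 58.9, near that line's own 61.7. These 11 members were named by Rraga, Plin2, Rps6, AL805899.2, Dmrta1 and a run of Gm loci (Gm13277, Gm13278, Gm13279, Gm13285, Gm13287 and Gm13288). Whether such neighbours act as separate promoters was not tested. DNA copy number was not analysed here.

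The main question of the series is whether the loss of E-cadherin changes active chromatin, and whether sex matters for it. At the shared promoters, median strength and covered length were lowest in the 3 female ΔEcad lines. The median percentile was 87.3 and 80.8 in male Ecad, 77.7 and 77.8 in female Ecad, 75.9 and 77.7 in male ΔEcad and 71.9, 73.2 and 61.7 in female ΔEcad lines. The female ΔEcad lines averaged 68.9 ± 6.34 (SD, n = 3) and the other 6 lines 79.5 ± 4.12, a difference of -10.6 percentiles (exact permutation test, two-sided, p = 0.0238, adjusted p = 0.0714 over the 9 tests of 3 values and 3 contrasts). Without Ma_1069, the shortest list, this difference was -6.95 and that for sex -5.27. ΔEcad against Ecad gave -8.81 (exact p = 0.0318, adjusted 0.0714) and female against male -7.97 (exact p = 0.0794, adjusted 0.102). The two-sided test doubles the smaller tail, so the smallest p it can give is 0.0238 for 3 lines against 6 and 0.0159 for 5 against 4. The p for the female ΔEcad lines was thus the smallest possible. None of the 9 tests passed an adjusted 0.05, and with these floors no test could pass it on its own.

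The median covered length per line was 2215, 1829, 1814, 1777, 1856, 1941, 1379, 1475 and 1133 bp. The female ΔEcad lines, at 1329 ± 176 bp (SD, n = 3), did not overlap the other 6, at 1905 ± 161 bp, with a difference of -576 bp (exact permutation p = 0.0238, adjusted 0.0714). Female against male lines differed by -445 bp (exact p = 0.0159, adjusted 0.0714) and ΔEcad against Ecad by -352 bp (exact p = 0.159, adjusted 0.179). The short coverage was not limited to promoters. At shared distal regions the female ΔEcad medians were 1903, 1934 and 1623 bp, below the 1989 (Ma_1181) to 2633 bp (Ma_1007) of the other 6 lines. The peaks in shared promoters made up a larger share of the shorter lists, from 12.0% in Ma_1007 to 27.1% in Ma_1069. The rule places a peak of every list in each member, and lists held 4930 (Ma_1181) to 5893 (Ma_1057) such peaks. Their share therefore mostly follows list length, and tests of it cannot tell the groups from list length. Here the differences were 5.28 percentage points for female ΔEcad (exact p = 0.0476, adjusted 0.0857), 5.17 for genotype (exact p = 0.0635, adjusted 0.0952) and 3.41 for sex (exact p = 0.286). Without Ma_1069 the first was 3.39 and the last 1.96, and without Ma_1007 the last was 1.43. With each list cut to the length of the shortest, the differences for female ΔEcad were -7.63 percentiles, -574 bp and 2.18 percentage points. For genotype they were then -6.07 percentiles (exact p = 0.0635), -353 bp and 2.18 points, and for sex -6.45 percentiles (exact p = 0.0476), -433 bp and 1.26 points.

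Shared promoters were then set against shared distal regions of the same line, a comparison chosen after the data were seen. The median rank score of promoters minus that of distal regions was 0.28 and 0.36 in male Ecad, -0.17 and -0.29 in female Ecad, -0.09 and 0.0015 in male ΔEcad and -0.33, -0.33 and -0.27 in female ΔEcad lines. The female lines were all below the male lines, and the difference of -0.41 had an exact permutation p of 0.0159 (adjusted 0.0714 over 9 such tests). Ranked by fold enrichment in place of −log10 q, the female ΔEcad lines lay at -0.77, -0.75 and -0.72 and the other 6 between -0.44 and 0.31, a difference of -0.60 (exact p = 0.0238, adjusted 0.0714). For log2 covered length, the promoter minus distal difference was -0.15 on average in male and -0.44 in female lines, a difference of -0.29 (exact p = 0.0159, adjusted 0.0714). Leaving out any 1 line kept these 3 differences between -0.49 and -0.34, between -0.66 and -0.51 and between -0.32 and -0.27. They had the smallest p of each measure. By −log10 q, female ΔEcad gave -0.32 (exact p = 0.0476) and genotype -0.25 (exact p = 0.206). By fold enrichment, sex gave -0.57 (exact p = 0.0318), with overlap of the sexes, and genotype -0.51 (exact p = 0.0794). For length, female ΔEcad gave -0.22 (exact p = 0.0714) and genotype -0.03 (exact p = 0.81). None of the 9 passed an adjusted 0.05.

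**Figure D4:**
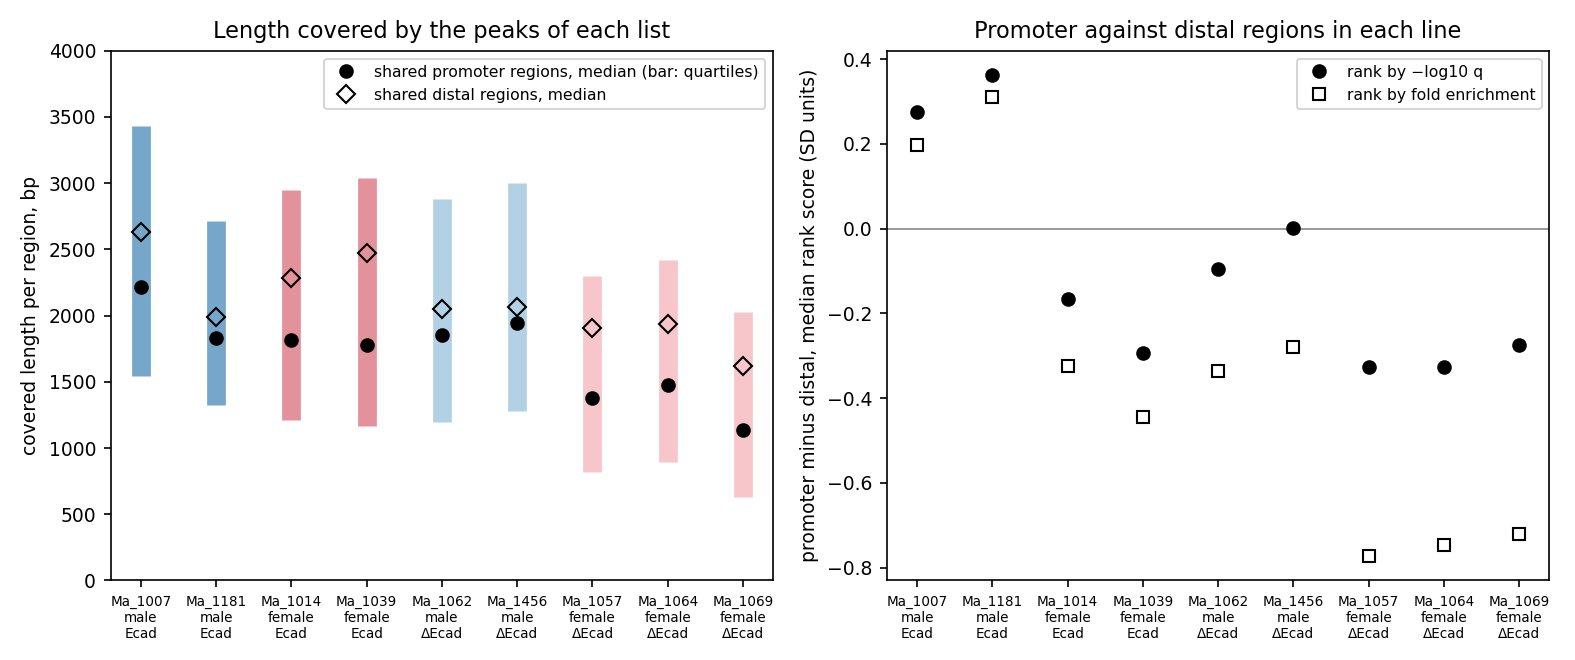
Left, covered length per region in bp for the 9 lines, with dots and bars for the median and quartiles of shared promoter regions and diamonds for the median of shared distal regions. Right, median rank score of promoters minus that of distal regions in SD units, by −log10 q (dots) and by fold enrichment (squares). The female ΔEcad lines have the shortest promoter coverage, 1133 to 1475 bp, and the shortest distal coverage, 1623 to 1934 bp. They also have the lowest squares, -0.77 to -0.72.

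The 8187 regions called in all lists were fitted together with limma on 4 groups, and members were read from that fit. By the rank score of −log10 q, few members were called. For ΔEcad against Ecad and for female against male no region passed an adjusted p of 0.05 (0.0% of 8187 in both), although 1160 and 955 had an unadjusted p under 0.05. The interaction of genotype and sex called 4 regions (0.0489%), of which 1 was a member. For female ΔEcad against the mean of the other 3 groups, 28 regions (0.342%) were higher and 7 (0.0855%) lower, of which 7 and 3 were members. These counts depended on the measure. With fold enrichment in place of −log10 q, 263 regions were higher and 447 lower for ΔEcad against Ecad (members 87 and 400), and 98 and 141 for female against male (members 19 and 136). For female ΔEcad, the within-list percentile in place of the rank score gave 2 regions higher and 73 lower (members 2 and 53), and fold enrichment 511 and 762 (members 156 and 672).

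The 7 members called higher in female ΔEcad lines were near the pseudogenes Gm43985 and Gm44306 and at Nhsl1, Psma6, Alox12, Ubxn2a and Zfp770. Psma6, a subunit of the proteasome core (chr12:55384824-55391020), had percentiles of 94.7, 97.0, 93.6, 91.4, 94.5, 91.4, 99.9, 99.9 and 99.1. All 3 female ΔEcad lines lay above the other 6, with a rank score difference of 1.62 ± 0.27 (SE, limma adjusted p = 0.0472). Alox12, a lipoxygenase of arachidonic acid, had 65.6, 34.6, 65.0, 49.7, 30.1, 33.2, 94.3, 81.0 and 99.3 (difference 2.397 ± 0.42, SE, limma adjusted p = 0.0475), again without overlap. Nhsl1 rose from 4.63 to 71.2 in the 6 other lines to 77.2 to 95.4 in female ΔEcad lines. Zfp770 gave 93.3 to 97.8 against 36.9 to 82.7. Ubxn2a overlapped, since Ma_1069 at 74.9 lay below Ma_1007 at 80.5. Psma6 and Ubxn2a lie in windows of chromosome 12 (55 to 60 Mb and 0 to 5 Mb) where members shifted up in Ma_1064. The median shifts in this line were 0.88 and 0.97 SD units, with 9 of 14 and 8 of 10 members highest there. The part of these shifts in the 2 calls was not tested.

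The 3 members called lower were Kctd15, Pabpc1 and Ppp1r12c. Pabpc1 encodes the main cytoplasmic poly(A)-binding protein, and its percentiles were 92.2, 86.8, 91.0, 74.1, 84.3, 88.8, 29.9, 36.9 and 19.7 (rank score difference -1.78 ± 0.29, SE, limma adjusted p = 0.0472). Kctd15, a regulator of neural crest formation, had 82.7 to 97.9 in the 6 other lines and 34.1 to 57.3 in female ΔEcad lines (-1.64 ± 0.26, SE, limma adjusted p = 0.0467). Ppp1r12c, a subunit of myosin phosphatase, had 52.4 to 85.3 and 0.371 to 16.8. All 3 showed no overlap between female ΔEcad and the other lines. Members called higher or lower were picked by this contrast, so a lack of overlap follows in part from that choice. For strength its share over all regions was not counted. The adjusted p-values of the 10 members lay between 0.0333 and 0.0494, and each was lost when 1 of 6 to 8 of the lines was left out. No region at all was called in this contrast without Ma_1014, Ma_1039, Ma_1057, Ma_1064 or Ma_1069, 1 without Ma_1181, and 118 without Ma_1456.

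**Figure D5:**
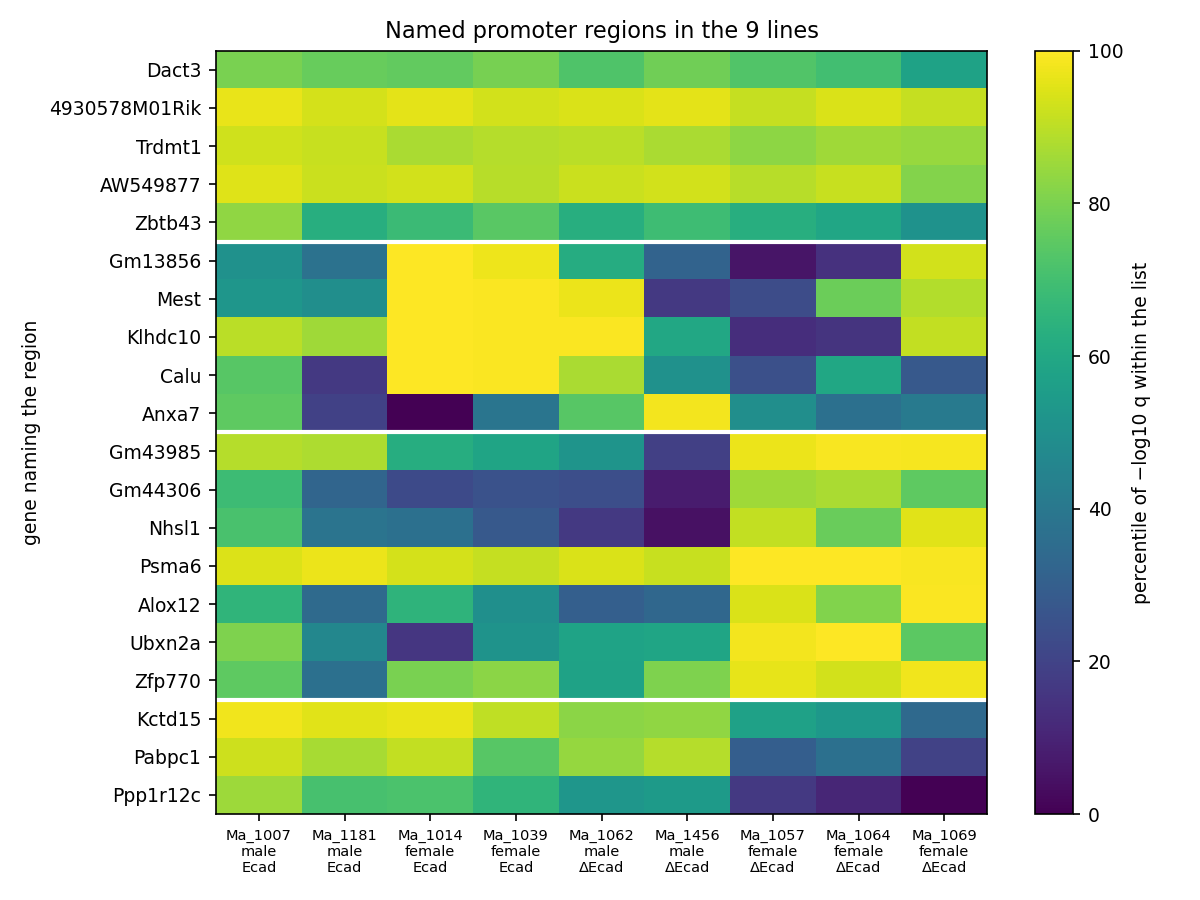
Percentile of −log10 q within the list (colour, 0 to 100) of 20 named shared promoter regions (rows) in the 9 lines (columns). From the top, the 5 steadiest members, the 5 most variable, the 7 called higher and the 3 called lower in female ΔEcad lines. The female ΔEcad columns hold the highest values of most rows in the block of higher calls and the lowest values in the block of lower calls, such as 29.9, 36.9 and 19.7 for Pabpc1.

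Covered length gave many more calls, nearly all in 1 direction. In female ΔEcad lines 1314 regions (16.0%) were narrower and 57 (0.696%) wider, of which 912 and 22 were members (limma, adjusted p under 0.05). Thus 20.5% of the members and 9.90% of the shared distal regions were narrower. The share was 14.3% of the 469 shared regions of 10 kb or wider and 19.8% of the 126 other shared regions. The median log2 difference was -0.52 for members (0.70-fold) and -0.42 for all 8187 regions. Since the median of all regions was below 0, covered length was also scaled to the median of each list, which moved the median of all regions to -0.02 and left a median of -0.11 for the members, with 167 narrower and 32 wider. Of the 934 members called, 189 were called in the same direction after scaling. In 1311 members (29.4%) the female ΔEcad lines all had less coverage than each of the 6 other lines. This held for 22.1% of all 8187 regions, 12.5% of the distal regions and 16.4% of those of 10 kb or wider. Without Ma_1014 the members called were 322 narrower and 3 wider, without Ma_1039 344 and 7, without Ma_1057 383 and 1, without Ma_1069 352 and 5, and without Ma_1007 552 and 34.

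The strongest losses of length were at Cant1, Cep57, Dennd4b, Hist1h4f and Ypel2. Cant1, a nucleotidase of the Golgi and endoplasmic reticulum (chr11:118415562-118419709), covered 2906, 4057, 3238, 3095, 2468, 3059, 365, 366 and 315 bp. The female ΔEcad lines did not overlap the others, with a log2 difference of -3.16 ± 0.19 (SE, limma adjusted p = 0.00121), or -2.76 after scaling (adjusted p = 0.00402). Cep57, a centrosome protein that shares its region with Fam76b, covered 2801 to 3217 bp in the 6 other lines and 598, 653 and 658 bp in female ΔEcad lines (-2.24 ± 0.16, SE, limma adjusted p = 0.00179). Dennd4b fell from between 1504 and 2763 bp to between 380 and 471 bp, the histone gene Hist1h4f, which shares its region with Hist1h1d, from between 1322 and 2317 bp to between 301 and 415 bp, and Ypel2 from between 1358 and 5380 bp to between 307 and 411 bp. All 5 calls held after scaling and without any 1 line (highest limma adjusted p 0.0153).

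Wider coverage was seen at Slc48a1, Gm23579, Alox12, Psma6 and Gm44306. Slc48a1, a haem transporter, covered 2278, 2292, 1897, 1327, 696, 675, 3024, 2964 and 3422 bp, a log2 difference of 1.21 ± 0.18 (SE, limma adjusted p = 0.00861), and it too held under each setting tried. Its female ΔEcad values did not overlap the others, in a region picked by this contrast, and the male ΔEcad lines were the lowest. Psma6 covered 6186, 6177 and 5812 bp in female ΔEcad lines and 2605 to 5601 bp in the others, and Alox12 2890 to 4355 bp and 332 to 1406 bp, so both were stronger and wider. Calls at Gm23579, Alox12, Psma6 and Gm44306 were lost without 1 of 3 or 4 lines.

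Narrower coverage in female ΔEcad lines was then counted for each gene list. Among 73 shared promoter regions of ribosomal protein genes 4 (5.48%) were called narrower and none wider, with a median log2 difference of -0.13, against 20.5% and -0.52 for all members. The proteasome, with 1 of 16 narrower, 1 wider (Psma6) and a median of -0.32, and the aminoacyl-tRNA synthetases, with 2 of 18 and -0.34, were also low. Spliceosome components had 9 of 25 narrower (36.0%, median -0.55), Mediator subunits 5 of 11 (median -0.76), the respiratory chain 10 of 37 (-0.44), replication factors 3 of 10 (-0.78), RNA polymerase II and general factors 4 of 18 (-0.59), immediate early genes 3 of 9 (-0.68), RAS-MAPK genes 3 of 10 (-0.38), acetylation and bromodomain genes 4 of 16 (-0.68) and CCT genes 1 of 8 (-0.51). Melanocyte genes had 1 of 3 (-0.48), and the regions of Postn and Ttr were both narrower (-0.69 and -0.68). No test of 1 list against another was run. By strength, 23.6% of the weakest quartile of members were called narrower and 15.3% of the strongest, with medians of -0.65 and -0.37.

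For genotype alone, 71 regions (0.867%) were narrower and 1 (0.0122%) wider in ΔEcad lines, of which 43 narrower regions were members. Ndufs6, a subunit of respiratory complex I that shares its region with Mrpl36, covered 1067, 1009, 929 and 975 bp in the Ecad lines and 407, 384, 341, 398 and 449 bp in the ΔEcad lines (log2 difference -1.33 ± 0.15, SE, limma adjusted p = 0.0321). The 2 genotypes did not overlap at this promoter, which was picked by this contrast. Rgl2 and Wrnip1 gave -1.33 and -1.42 (both limma adjusted p = 0.0331), with Ypel2 (-2.42) and Cant1 (-1.75) also called. After scaling no member was called for genotype, and the scaled difference at Ndufs6 was -1.07 (limma adjusted p = 0.145). None of the 43 calls was left without Ma_1007, Ma_1181, Ma_1014, Ma_1039, Ma_1057 or Ma_1069, 27 were left without Ma_1064 and 16 without Ma_1456. Without Ma_1062, 100 members were called narrower and 2 wider, 41 of them among the 43. For sex no region passed (0.0%), with a smallest adjusted p of 0.0619 among members and 1362 regions with an unadjusted p under 0.05. The interaction called 12 regions (0.147%), of which 6 were members, 5 with a negative and 1 with a positive term. Napepld covered 1966 and 1403 bp in male Ecad, 3035 and 3917 bp in female Ecad, 2618 and 3201 bp in male ΔEcad and 547, 523 and 564 bp in female ΔEcad lines (log2 interaction -3.47 ± 0.38, SE, limma adjusted p = 0.0339). Its male ΔEcad lines were above both male Ecad lines, and its female ΔEcad lines below all others. None of the 6 calls was left when any 1 line was left out, and 2 were left after scaling.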

How the data were processed

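H3K27ac ChIP-seq of 9 melanoma cell lines was read from 1 peak list per line; 4 input libraries were not analysed here. Per the submitters' processing notes the tools were Bowtie2 2.4.5, MACS2 2.2.7.1 and deepTools 3.5.1.0.0, on mm10; which input served which list is not given in the sources used here. Per line, the deposited columns used were the fold enrichment, a ratio of peak height to local background, the −log10 q and the summit offset. The deposited −log10 p and the deposited score were read for the check of units only. The lowest −log10 q in the lists corresponds to a q of about 1e-05. The lists hold no read counts, so the depth is unknown, and −log10 q depends on it; ranks and percentiles within a list were therefore compared.

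Overlapping or touching peaks were joined and matched to 141767 transcript starts of GENCODE M21. Rank scores and log2 covered lengths of 8187 regions were fitted with limma 3.58.1 on 4 groups with an intensity trend, and p-values were adjusted over all 8187 regions with the Benjamini-Hochberg method. Medians per line were compared with two-sided exact permutation tests (scipy 1.17.1), adjusted over 9 tests. A line is 1 sample, so p-values measure the spread between lines. The fits were tested on simulated data. Promoter composition used the 250 bases before the outermost start of 20802 genes; printed windows are from RefSeq (GRCm38.p6), where all 31396 autosomal windows were identical to the genome. Of 4459 members, 2879 had a RefSeq start of their naming gene within 1 kb.

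The members and the gene lists were chosen with earlier results of these data known. Regions were named by these rules: the 10 with the highest and the 5 with the lowest mean percentile, the 5 with the widest and narrowest coverage, the 5 with the largest and smallest SD of the rank score, up to 5 per direction and limma contrast, and the 2 strongest of each gene list with its uncalled or wider genes when these were 3 or fewer. A region takes the name of the protein-coding gene whose start is nearest to its median summit, or of any gene where none is within 1 kb. Ubxn2a, Zfp770, the weakest gene of a list, Nras, Ep300, Crebbp and the other genes given by their number of lists were chosen after their values were seen, as was the comparison of promoters with distal regions. Alternatives were other start distances, list lengths, strength measures, median scaling, regions with 1 peak in every list, a fit without trend and leaving out each line.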

Additional observations from a re-analysis of the deposited data

Results flagged for a closer look

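Among the shared promoter regions, the median covered length of Ma_1007, 2215 bp, stood apart from the other 3 Ecad lines (1777 to 1829 bp) and from the other 5 lines that are not female ΔEcad (1777 to 1941 bp). It was tested with Dixon's critical values in 30 groups of per-line values, of which 2 gave a line that stood apart, both this one. These 2 groups share the Ecad lines. Chance gives about 1 in 20, so the count was near what chance gives.

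At 6 members the effect of ΔEcad on covered length differed between the sexes by the interaction term (limma adjusted p between 0.0339 and 0.0494). The log2 interaction was 2.72 for Slc48a1, -3.33 for Dennd4b, -3.47 for Napepld, -3.29 for Mmaa, -2.41 for Cep57 and -2.87 for Cant1. Mmaa, which is needed for the mitochondrial use of vitamin B12, covered 2035 and 1647 bp in male Ecad, 4784 and 3638 bp in female Ecad, 2666 and 2361 bp in male ΔEcad and 583, 482 and 709 bp in female ΔEcad lines. None of these 6 calls was left when any 1 line was left out. In strength the same term was 4.31 ± 0.57 (SE, limma adjusted p = 0.0368) at the pseudogene Gm43985, with percentiles of 88.9 and 87.6 in male Ecad, 62.2 and 58.4 in female Ecad, 51.9 and 18.9 in male ΔEcad and 97.0, 98.9 and 98.5 in female ΔEcad lines, and it was lost in 7 of 9 fits without 1 line.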

How the results depend on the processing

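The number of shared promoter regions, 4459, was 961 when the peaks of each list had to cover at least 50% of the region and 2093 with only the stronger 50% of each list, and 4480 to 5262 without 1 line. For strength, calls among 8187 regions depended on the measure: fold enrichment gave 710 for genotype and 239 for sex against 0 and 0, 70 against 4 for the interaction and 1273 against 35 for female ΔEcad, and the within-list percentile gave 0 and 75 for the last 2. With 1 peak in every list, where fewer regions were tested, these 2 counts were 2 and 10, and those for covered length were 8 (genotype), 23 (sex), 4 (interaction) and 633 (female ΔEcad) against 72, 0, 12 and 1371. Scaling covered length to the median left 1 call for genotype and 326 for female ΔEcad. Without 1 line, strength calls ranged from 0 to 0 (genotype), 0 to 2 (sex), 0 to 40 (interaction) and 0 to 118 (female ΔEcad), and covered length calls from 0 to 234, 0 to 0, 0 to 4 and 452 to 1428. The cause of these changes was not tested. Differences per line kept their direction without each line in turn: for percentile -10.2 to -6.20 (genotype), -9.48 to -5.27 (sex) and -12.7 to -6.95 (female ΔEcad), for covered length -448 to -246, -519 to -349 and -649 to -478 bp, and for the share of peaks 3.52 to 6.22, 1.43 to 4.99 and 3.39 to 7.01 percentage points. They also kept it with lists of equal length and with 1 peak in every list, where the shares were 1.29, 0.896 and 1.37. No paired analysis was possible, because each line is a separate culture of 1 sex and 1 genotype and the labels link no lines across groups. The promoter minus distal difference in log2 covered length between genotypes, -0.03, ran from -0.09 to 0.03 without 1 line. With 2 or 3 lines a group and no read counts, small differences could not be detected.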

Other observations

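In 2 further windows of 5 Mb the shared promoters of Ma_1064 shifted together by a median of more than 1 SD unit. From 120 to 125 Mb of chromosome 8, 13 of 20 members had their lowest relative strength in Ma_1064, with a median shift of -1.11 SD units. From 85 to 90 Mb of chromosome 12, 9 of 10 members had their highest there, with a median shift of 1.01. They were not alone on their chromosomes, where other windows shifted the same way in Ma_1064 by less. On chromosome 8 the median shift was -0.98 from 10 to 15 Mb and -0.94 from 25 to 30 Mb. On chromosome 12 it was 0.97 from 0 to 5 Mb, 0.82 from 50 to 55 Mb and 0.88 from 55 to 60 Mb. Whether these chromosomes shifted as a whole in Ma_1064 was not tested. All these windows were picked after their values were seen.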
